A study of Xenopus laevis with 8 samples.

Results

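Most of the genes described here encode enzymes and complexes that modify or move chromatin. These are histone deacetylases, acetyltransferases, methyltransferases and demethylases, Polycomb proteins, ATP-dependent remodelers, DNA methyltransferases and the proteins that read their marks. The genes were followed in head and tail fragments of Xenopus laevis (African clawed frog) embryos. Members were chosen by the letters with which their gene symbol starts, with earlier results of these data known. Both the L and the S copy were kept, since this species carries duplicated chromosomes and many genes exist in both forms. Of 15491 probe sets on the array other than controls, 91 with 1 symbol matched, for 62 genes with copies joined. A further 2 matched but list both copies of a gene and were not used. Because one of the letter patterns is rnf2, the name of a Polycomb ubiquitin ligase, it also caught 7 probe sets of 6 other RING-finger genes. Of these only rnf20.L, a ubiquitin ligase for histone H2B, is described here as a chromatin gene.

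The embryos were untreated, at stage 18, a late neurula, and were dissected into head and tail fragments. In each tissue 3 arrays came from single embryos (replicates 1 to 3) and 1 from pooled embryos (replicate 4). The labels name no strain, clutch or number of embryos in a pool, and leave unstated whether equal replicate numbers mark fragments of one animal. The p-values therefore measure the spread between these samples, which may in part be technical. A fragment holds many tissues, and fewer cells of a type cannot be told apart from less RNA per cell.

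Chromatin complexes act in opposing pairs. Polycomb repressive complex 2 (PRC2) methylates lysine 27 of histone H3, and PRC1 binds that mark and ubiquitinates histone H2A; together they keep developmental genes silent. The NuRD and CoREST complexes remove acetyl or methyl groups from active chromatin, whereas the SWI/SNF family (BAF and PBAF), acetyltransferases and BET proteins open or read it. In vertebrate embryos many of these genes are supplied by the egg and are also active in dividing and neural tissue.

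The values are MAS5 signals, which are background-corrected intensities of a probe set, given below on the log2 scale. A level can be set against the same probe set in other arrays but not against another probe set. A probe set was tested where its mean log2 signal over the 8 arrays reached 7.86, the 40th percentile, which left 63 of the 91 members, for 48 genes. Differences are log2 changes, head minus tail, tested over all 9295 probe sets above that level with limma and Benjamini-Hochberg adjustment, and a call means an adjusted p under 0.05.

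Of the 63 tested members 1 passed as different between heads and tails, arid3a.S, which was higher in tails. That is 1.59% of the members against 4.62% of all tested probe sets, of which 2.61% were higher in tails. No member passed as higher in heads by limma, where 2.00% of all probe sets did; 7 members higher in heads and 6 higher in tails had an unadjusted p under 0.05, where all probe sets gave 8.84% and 8.61%. Together these are 20.6% of the members against 17.5% overall. The head and tail arrays did not overlap for 10 members, 6 higher in heads and 4 higher in tails, which is 15.9% against 11.7% over all probe sets (5.95% higher in heads, 5.71% in tails). Both shares were nearer to those over all probe sets without the 7 RING-finger probe sets caught by letters, a choice made after seeing the data. Of the 56 members then left, 16.1% had an unadjusted p under 0.05 and 12.5% did not overlap. The share of members with a change above 0 instead moved away from that over all probe sets. The probe sets left out include that of the chromatin gene rnf20.L. A change of 2-fold or more was reached by 2 members, and by 6.26% of all probe sets. Of the 62 members that did not pass, 33 had a 95% confidence interval lying within a 2-fold difference in either direction. These are 52.4% of the 63 tested members, where 61.5% of all tested probe sets had such an interval. The intervals of the other 29 that did not pass reached beyond 2-fold, so a difference of that size is not excluded for them. The median size of the change, in either direction, was 0.37 for the members and 0.28 for all tested probe sets.

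Most changes leaned to the head by a small amount. The log2 change was above 0 for 44 of 63 members (69.8%, against 56.0% of all tested probe sets), and its median was 0.27 against 0.06. With each array centred on its median the same median was 0.20 against -0.01, and 42 members were above 0. The lean was smaller without tail replicate 1, where the median was 0.17 against 0.04, and 41 members were above 0. Without both replicate 1 arrays the median was 0.23 against 0.05, and 39 members were above 0 (61.9%, against 54.5%). By family, 16 of 19 medians lay above 0. The 3 below 0 were the demethylases of H3 lysine 9 or 36, the lone ARID gene and the RING-finger genes caught by letters. Under quantile normalization or median centring the median of class II histone deacetylases, which is that of hdac6.L alone, changed sign as well. These medians count every tested probe set, and several families had 1 tested gene. With only the brightest probe set of each gene, the median of the lysine 9, 36 and 20 methyltransferases was -0.02 instead of 0.34. No other family median changed sign, and some rose while others fell. That of PRC2 went from 0.52 to 0.30 and that of DNA methylation genes from 0.40 to 0.60. The plot of changes by complex shows the range within each family.

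**Figure D1:**
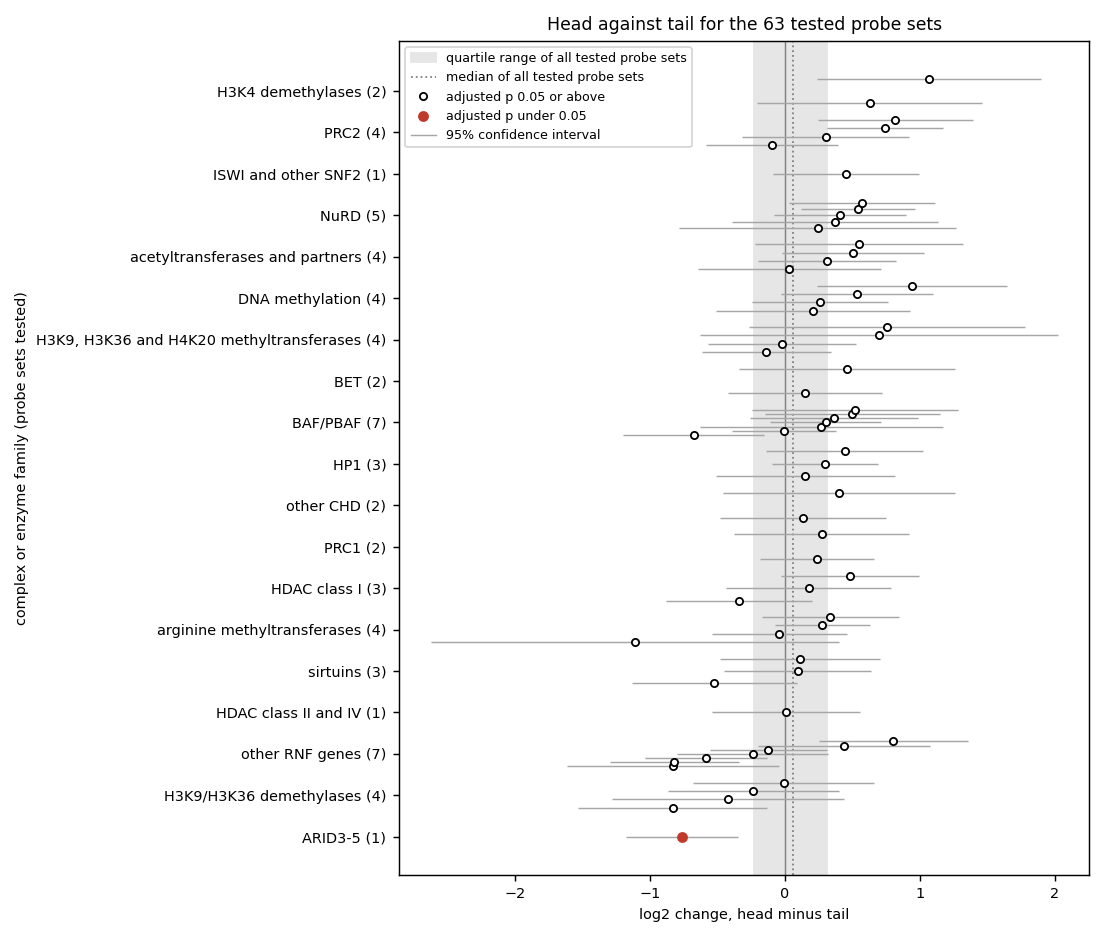
Log2 change, head minus tail (horizontal axis), of the 63 tested probe sets, in rows by complex or family with the number of probe sets in brackets; lines are 95% confidence intervals and the grey band is the range between the quartiles of all 9295 tested probe sets. The filled point, arid3a.S at -0.76, is the one with an adjusted p under 0.05, and the members run from -1.11 to 1.07.

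The tissues themselves were well separated by their markers. The marker lists were chosen with earlier results of these data known, so the counts are not an independent test of the dissection. Of the head markers (forebrain, eye and cement gland genes) 11 of 12 tested probe sets passed as higher in heads, and of the tail markers (posterior mesoderm and trunk Hox genes) 8 of 8 passed as higher in tails. Of 8 tested neural probe sets 4 passed as higher in heads, and all 8 had changes above 0. The summed signal over 16 neural probe sets was 16013 to 28591 units in heads and 5606 to 11127 in tails. Such a sum weighs bright probe sets most. The brightest in heads, sox11.S, read 12.46 to 14.01 there and 9.645 to 12.48 in tails, so its tissues overlapped. Of 20 tested probe sets of replication and division genes 7 passed as higher in heads. The summed signal over 23 probe sets was 44875 to 59594 in heads and 27683 to 30275 in tails. The 7 that passed belonged to mcm2, mcm4, mcm5, pcna, cdc45 and cdk2. All tested probe sets of these genes and of mcm7 had changes above 0. The division genes were mixed and none passed. The changes were -0.06 for ccnb2.S, -0.02 for ccnb2.L, -0.13 for mki67.S and -0.26 for a probe set of top2a.L. Those of cdk1, ccna2 and the other top2a.L probe set lay above 0. Neural and replication genes, but not all division genes, thus ran the same way as most chromatin genes. Their part in the small lean to the head was not tested. Germ plasm probe sets passed as higher in tails for 3 of 3 tested.

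The gene that passed, arid3a.S, encodes a DNA-binding protein of the ARID family. Its log2 signal was 11.86, 11.65 and 12.13 in the single heads and 12.004 in the pooled heads. In the tails it was 12.84, 12.58 and 12.73, and 12.55 in the pool. Every tail lay above every head, by at least 0.42 on the log2 scale. Heads averaged 11.91 ± 0.20 and tails 12.68 ± 0.13 (SD, 4 arrays per tissue), a 1.70-fold difference (log2 change -0.76 ± 0.19, SE; limma adjusted p = 0.0403). The call was close to the threshold: the adjusted p lay between 0.0585 and 0.141 when any 1 of the 8 arrays was left out, and was 0.109 in the 6 single-embryo arrays, with a change between -0.84 and -0.68.

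PRC2 was measured through 4 probe sets of its 3 core genes, and eed.L was the member nearest to a call in the head direction. The gene eed encodes the subunit that binds methylated lysine 27. The log2 signal of eed.L was 11.72, 11.77 and 11.55 in single heads and 11.66 in the pool, against 11.26, 10.81 and 10.76 in single tails and 10.91 in the tail pool. Heads and tails did not overlap, and the heads spanned a narrow range. The change was 0.74 ± 0.20 (SE), or 1.67-fold, with a limma adjusted p of 0.0531. The S copy gave 11.22, 11.22, 10.96 and 10.90 in heads and 10.82, 9.60, 10.45 and 10.17 in tails, again without overlap, although tail replicate 1 came within 0.08 of the lowest head. Its change was 0.82 ± 0.26 (SE), with a limma adjusted p of 0.120. Without tail replicate 1, the highest tail for both copies, the changes were 0.85 and 1.00, with limma adjusted p of 0.0234 and 0.0347. Leaving out any of the other 7 arrays gave adjusted p of 0.0848 to 0.194 for eed.L and 0.167 to 0.283 for eed.S, and the 6 single-embryo arrays gave 0.201 and 0.262. The other subunits did not share this separation. The catalytic subunit gene ezh2.L averaged 12.52 ± 0.38 over the heads and 12.62 ± 0.19 over the tails (SD, n = 4), a change of -0.10 with a 95% interval from -0.59 to 0.39. The scaffold gene suz12 had a change of 0.30 (-0.32 to 0.92) and was highest in the pool of each tissue. Without tail replicate 1 the change of suz12 was 0.09.

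For PRC1, the ubiquitin ligase gene rnf2.L had a change of 0.24 (95% interval -0.19 to 0.66) and the chromodomain gene cbx2.L one of 0.27 (-0.38 to 0.92), and neither passed. The remaining PRC1 members, bmi1.S and ring1.L, were too dim to be tested. The HP1 genes, whose products bind methylated lysine 9 of histone H3, all leaned slightly to the head. The changes were 0.30 for cbx3.S, 0.15 for cbx3.L and 0.44 for cbx1.S, and their intervals all held 0. Without tail replicate 1 that of cbx3.L was -0.06, and those of cbx3.S and cbx1.S were 0.28 and 0.27.

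All 5 tested probe sets of NuRD-specific genes lay above 0, with a median change of 0.41, and none passed. Without tail replicate 1 this median rose to 0.53, while the change of chd4.L fell to 0.17. Of the 5 probe sets, 3 belong to mbd3.S, whose product is a core NuRD subunit. The mbd3.S probe set with the widest gap between tissues read 10.92, 10.80, 10.91 and 10.67 in heads and 10.45, 10.21, 10.10 and 10.36 in tails. The groups did not overlap, and the change was 0.54 ± 0.19 (SE; limma adjusted p = 0.156). The other pair gave changes of 0.57 and 0.41, the first also without overlap. The remodeler ATPase gene chd4.L had a change of 0.37 (95% interval -0.39 to 1.13), with head arrays from 8.53 to 9.72 and tail arrays from 7.95 to 9.11. For mbd2.S the change was 0.24, with arrays of both tissues spread over 7.08 to 9.07. The class I deacetylase gene hdac1, whose product NuRD shares with other complexes, gave -0.34 for the L copy and 0.18 for the S copy. Another class I gene, hdac8.L, read 8.60, 8.65, 8.58 and 9.05 in heads and 8.53, 8.01, 8.20 and 8.22 in tails, a separation of 0.05 (change 0.48, limma adjusted p = 0.321). The single probe set of hdac2.S was below the tested level. The class II gene hdac6.L, whose product acts mainly on tubulin in the cytoplasm, had a change of 0.01 (95% interval -0.54 to 0.56).

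**Figure D2:**
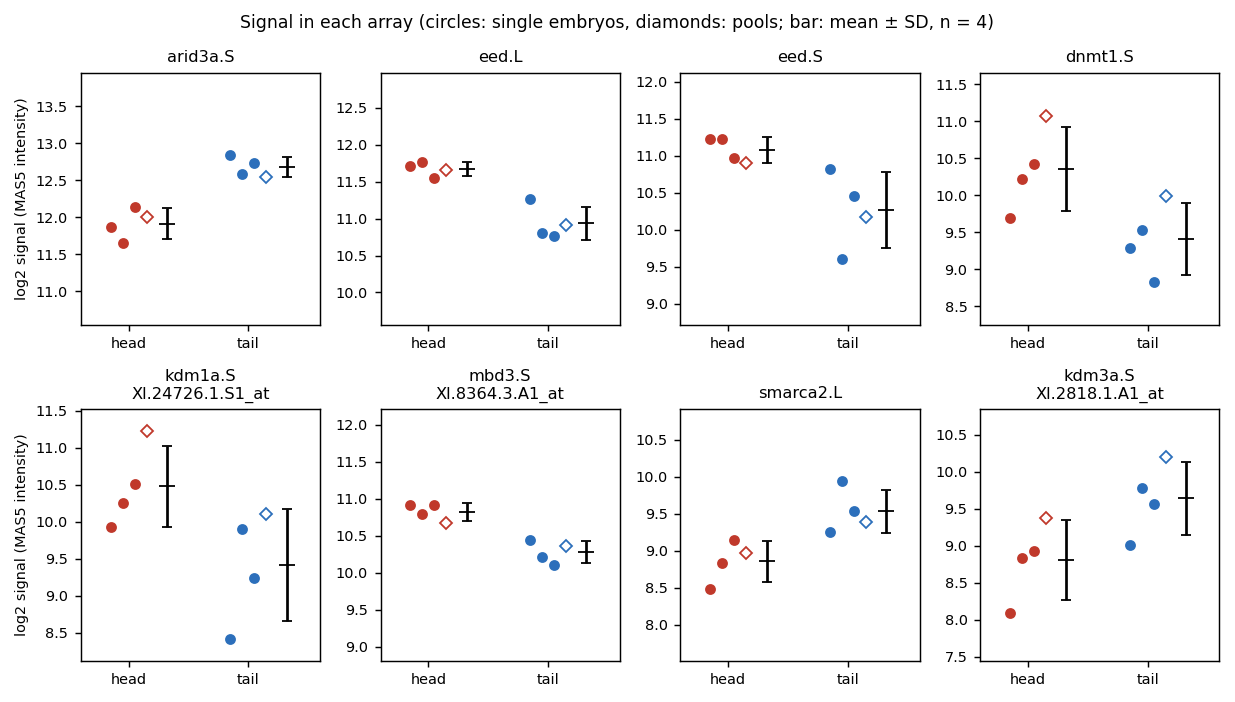
Log2 signal (vertical axis, the same span in every panel) of 8 probe sets in the head and tail arrays; circles are single embryos, open diamonds pools, and the bar the mean and SD of 4 arrays. Heads and tails are apart for arid3a.S, both eed copies, mbd3.S and smarca2.L, and overlap for dnmt1.S, kdm1a.S and kdm3a.S, where the pool is highest in each tissue.

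The demethylases fell on both sides of 0. The lysine 4 demethylase gene kdm1a.S, the enzyme of the CoREST complex, had the highest change of the 63, 1.07 ± 0.38 (SE) for one of its probe sets, which read 9.93, 10.26, 10.51 and 11.22 in heads and 8.42, 9.90, 9.23 and 10.10 in tails. The tail pool lay above the lowest head, the arrays of each tissue spread over more than 1 log2 unit, and the change did not pass (limma adjusted p = 0.158). The other probe set of kdm1a.S gave 0.63 (95% interval -0.20 to 1.46). Without tail replicate 1 these kdm1a.S changes were 0.74 and 0.37. In contrast, all 4 tested probe sets of lysine 9 or lysine 36 demethylases (3 genes) lay below 0. Their median was -0.33, and none passed. With 1 array left out this median ran from -0.16 (without head replicate 1) to -0.62 (without tail replicate 1). Among them kdm3a.S read 8.09, 8.84, 8.93 and 9.38 in heads and 9.02, 9.78, 9.57 and 10.20 in tails (change -0.83 ± 0.32, SE; limma adjusted p = 0.197). Its L copy gave -0.42, kdm2b.L gave -0.23 and kdm7a.S gave -0.01. The lysine 27 demethylase gene kdm6a.S was too dim to be tested.

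Among histone methyltransferases, no gene of the KMT2 and SETD1 family, which methylates lysine 4, was matched. The lysine 9 methyltransferase gene setdb1.L had changes of 0.76 and 0.70 in its tested probe sets, but the arrays of 1 tissue differed more than the tissues did. In the first of these the tails ran from 6.99 in replicate 1 to 9.47 in the pool and the heads from 8.58 to 9.92. The lysine 20 (histone H4) methyltransferase genes kmt5a.S and kmt5b.L had changes of -0.14 and -0.02, with 95% intervals of -0.62 to 0.34 and -0.57 to 0.53. Of the arginine methyltransferases, prmt5.L had a change of 0.34 and prmt1.S one of 0.28. A probe set of prmt1.L had the lowest change of the 63, -1.11 (95% interval -2.63 to 0.40), and this rested on head replicate 1, which read 11.55 against 14.45 to 15.70 in the other heads. Without that array its change was -0.23, and the other prmt1.L probe set gave -0.04 on all arrays.

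The DNA methylation genes leaned to the head in all 4 tested probe sets, with a median of 0.40 and no call. The maintenance methyltransferase gene dnmt1.S read 9.69, 10.22, 10.42 and 11.07 in heads and 9.28, 9.53, 8.83 and 9.99 in tails. The 3 single tails lay below every head and the tail pool did not, and the change was 0.94 ± 0.32 (SE; limma adjusted p = 0.145). The L copy had a change of 0.53 (95% interval -0.03 to 1.10). The methyl-CpG-binding gene mbd1 gave 0.26 for its S copy and 0.21 for its L copy. Without tail replicate 1 the change of mbd1.L was -0.14, and mbd1.S and both dnmt1 copies stayed above 0. No gene of the TET or DNMT3 families was matched.

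The SWI/SNF complexes were represented by 7 tested probe sets of 6 genes, 5 of them above 0 with a family median of 0.30, and none passed. The subunit gene smarcb1.S had the change closest to 0 of the 63, with 11.96 ± 0.07 in heads against 11.96 ± 0.10 in tails (SD, n = 4) and a 95% interval of -0.39 to 0.38. The ATPase gene smarca2.L leaned the other way: it read 8.49, 8.83, 9.14 and 8.97 in heads and 9.26, 9.94, 9.54 and 9.39 in tails, without overlap (change -0.68 ± 0.24, SE; limma adjusted p = 0.155). The further subunit genes smarcc1.L, smarcd1.L and smarce1.L and the PBAF gene brd7.L had changes from 0.27 to 0.52. In smarcc1.L, smarce1.L and both probe sets of smarcd1.L, tail replicate 1 was the lowest of the 8 arrays. Without it the family median was 0.13, smarcc1.L had a change of 0.13, and the smarcd1.L probe sets gave -0.17 and 0.25. The ISWI ATPase gene smarca5.S had a change of 0.45 (95% interval -0.09 to 1.00), and chd7.L, a remodeler gene known for its role in the neural crest, had changes of 0.40 and 0.14. Without tail replicate 1 these chd7.L changes were -0.02 and 0.12.

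The genes of acetyltransferases and their partners, and the BET genes, followed the same small lean. The only acetyltransferase gene tested was kat7.L. The H3 and H4 acetyltransferase gene kat7.L read 11.62, 12.16, 12.14 and 12.22 in heads and 11.30, 11.12, 11.73 and 11.95 in tails (change 0.51 ± 0.24, SE; limma adjusted p = 0.306). The products of the ING genes tie acetyltransferases or deacetylases to methylated lysine 4. Their changes were 0.55 for ing5.L, 0.31 for ing2.L and 0.03 for ing3.L. Without tail replicate 1 these rose to 0.74, 0.47 and 0.26, and that of kat7.L fell to 0.43. The bromodomain genes brd3.S and brd2.S had changes of 0.46 and 0.15, and of 0.22 and 0.26 without tail replicate 1. The sirtuin genes, which encode NAD-dependent deacylases, had changes of 0.11 for sirt3.2.L, 0.10 for sirt5.L and -0.52 for sirt4.L. Among the RING-finger genes caught by letters, rnf20.L read 12.04, 11.50, 11.81 and 11.58 in heads and 12.58, 12.43, 12.18 and 12.07 in tails, a separation of 0.03 (change -0.58 ± 0.21, SE; limma adjusted p = 0.156). Both copies of rnf222 gave changes close to each other, -0.83 for L and -0.82 for S, and the S copy had a limma adjusted p of 0.0556. In the other direction rnf208.S read 8.90, 8.96, 8.40 and 9.36 in heads and 8.05, 8.25, 7.99 and 8.10 in tails, without overlap (change 0.80 ± 0.25, SE; limma adjusted p = 0.111), and rnf26.L had a change of 0.44. Without these 7 probe sets, a choice made after seeing the data, 1 of 56 members passed, 42 lay above 0, and the median change was 0.28. That share above 0 was larger than the 69.8% with them, and so further from the 56.0% of all tested probe sets. The 7 include rnf20.L, so this smaller set leaves out a chromatin gene with a change below 0.

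A separate list, also chosen with earlier results of these data known, held genes that the symbol pattern does not take. It joined subunits of the same complexes with further histone methyltransferase genes and genes linked to DNA methylation. Of 84 such genes 43 had a probe set, and of their 36 tested probe sets 2 passed, both higher in heads, which is 5.56% against 4.62% of all tested probe sets. Their median change was 0.27 against 0.06, with 31 above 0 and 5 below. The lysine 9 methyltransferase gene suv39h1.L read 11.38, 11.82, 11.73 and 11.73 in heads and 10.43, 10.78, 10.21 and 10.39 in tails. Its tissues lay far apart, and the change was 1.21 ± 0.21 (SE), or 2.32-fold (limma adjusted p = 0.00584); it passed under each of the 20 alternative settings, including the loss of any 1 array. The CoREST corepressor gene rcor2.L, whose product partners that of kdm1a, read 10.65, 11.19, 10.94 and 11.89 in heads and 9.08, 9.77, 9.61 and 10.54 in tails. Its change was 1.42 ± 0.34 (SE), or 2.67-fold, with a limma adjusted p of 0.0340, and it did not pass in 6 of the 8 fits with 1 array left out (adjusted p up to 0.111). Among those that did not pass, the highest change was 1.24, for the PRC1 partner gene phc2.L (limma adjusted p = 0.144). The NuRD partner genes mta2.L and rbbp4.L had changes of 1.15 and 0.61, and the PRC2 cofactor gene aebp2.S one of 0.75. The DNMT1 cofactor gene uhrf1.S had changes of 0.54 and 0.68, and none of these passed. Nor did suv39h2.L, the relative of suv39h1.L, at 0.17 (limma adjusted p = 0.745). The lowest changes of these 36 were those of gadd45a.S and apobec2.L, both -0.83 (limma adjusted p = 0.255 and 0.119), the latter without overlap between the tissues.

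Genes with more than 1 tested probe set allow the changes to be compared within a gene. There were 13 such genes with 28 probe sets, and in 11 of them all probe sets pointed the same way. In 11 the changes lay within 0.5 of each other on the log2 scale. The copies of eed differed by 0.08, those of mbd1 by 0.05 and those of rnf222 by 0.01. The exceptions in sign were hdac1 (L below 0, S above) and prmt1, whose spread of 1.39 came from the probe set in which head replicate 1 was low. The sequences of the L and S copies are alike and their probes can cross-hybridise, so these are not independent measurements.

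**Figure D3:**
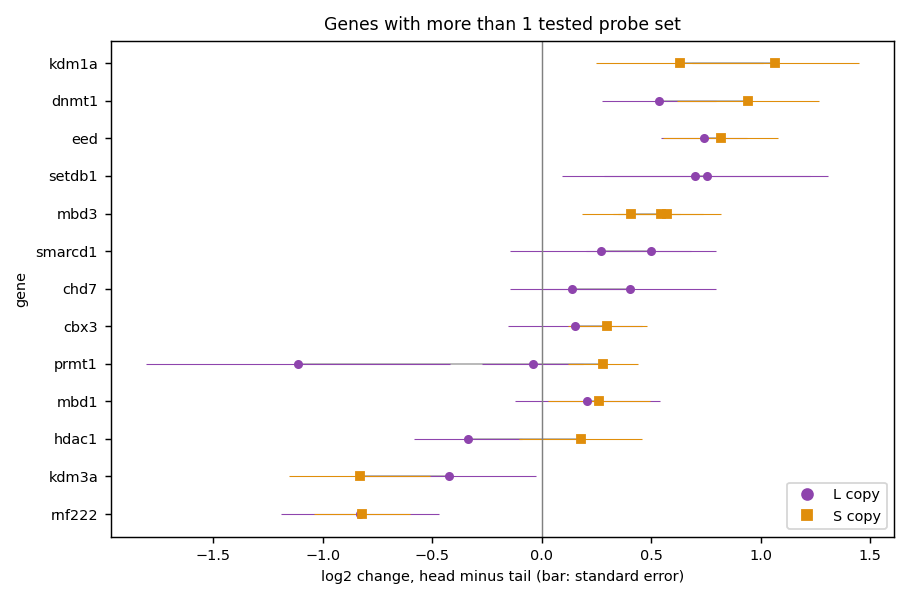
Log2 change, head minus tail (horizontal axis), with its standard error, of the 13 genes with more than 1 tested probe set; circles are L and squares S copies. The probe sets of eed, dnmt1, kdm1a, mbd3 and setdb1 all lie above 0 and those of kdm3a and rnf222 below 0, whereas hdac1 and prmt1 lie on both sides.

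The spread within a tissue was like that of the rest of the array, with a median SD of 0.37 for the members and 0.38 for all tested probe sets, but the same arrays were often low. Head replicate 1 was the lowest head for 31 of 63 members (49.2%, against 33.3% of all tested probe sets), and tail replicate 1 was the lowest tail for 29 (46.0%, against 35.0%). Both held for 21 members, 33.3% against 16.8%. The median deviation from a probe set's own mean was -0.21 in tail replicate 1, the lowest of the 8 arrays, and 0.23 in the pooled heads, the highest, whereas over all tested probe sets it lay between -0.02 and 0.04. In the single heads it was -0.06, 0.12 and 0.14, in tail replicates 2 and 3 -0.01 and -0.17, and in the pooled tails 0.11. The tissues thus overlapped in this median, with head replicate 1 below tail replicate 2 and the pooled tails. Without both replicate 1 arrays 3 members passed, 4.76% against 7.35% of all probe sets in that fit: eed.L (change 0.84, limma adjusted p = 0.0280), eed.S (0.95, 0.0483) and rnf222.L (-1.24, 0.0149). The call for arid3a.S was then lost (-0.69, 0.0693).

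**Figure D4:**
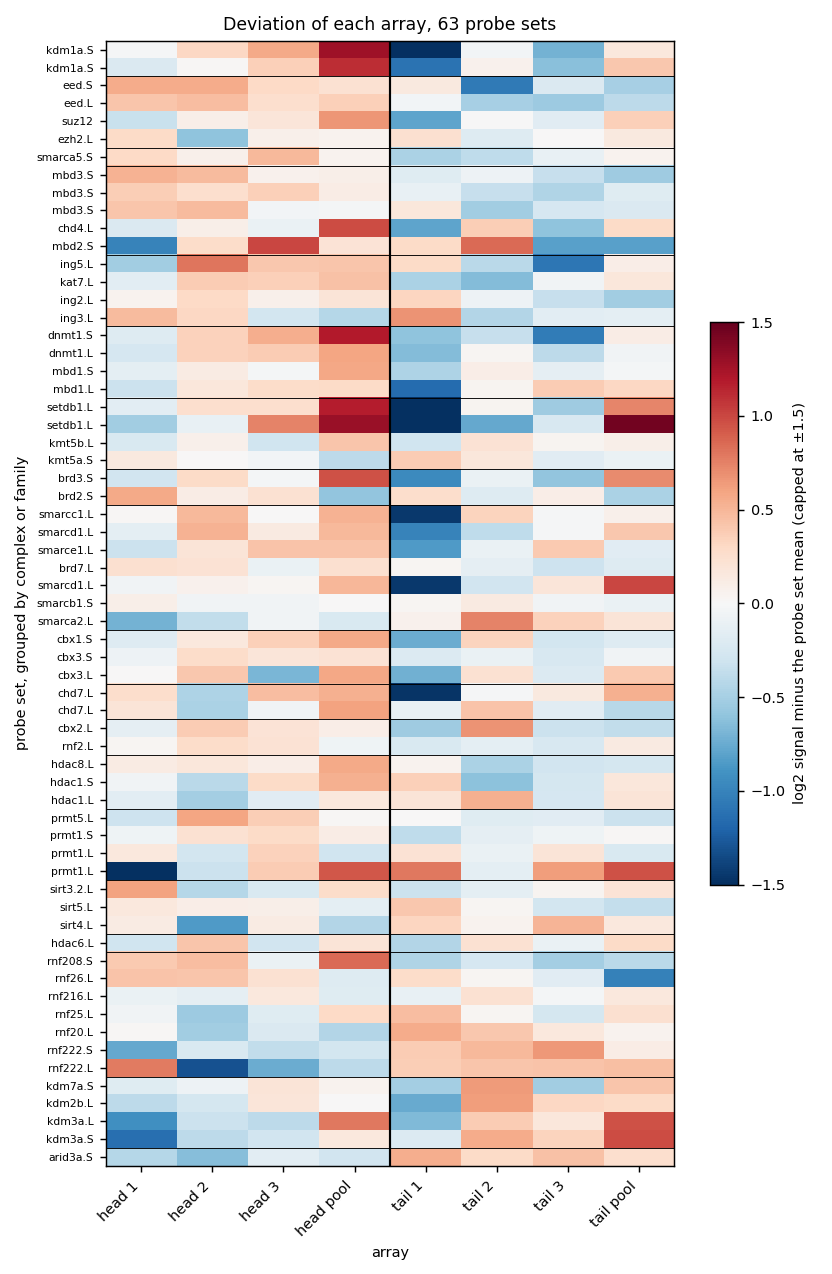
Log2 signal of each array minus the mean of the probe set (colour, capped at 1.5 either way) for the 63 tested probe sets, in rows grouped by complex or family, with heads left and tails right of the line. Tail 1 is low in much of the upper part, the pools are the highest arrays of their tissue for kdm1a.S, setdb1.L, brd3.S and kdm3a, and arid3a.S at the bottom is low in all heads.

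The series also holds pooled and single embryos, which were compared with tissue in the model. No member passed by limma (0 of 63, as for 0 of all 9295 probe sets), while 14 had an unadjusted p under 0.05, which is 22.2% against 14.8% overall. The pool lay above all single embryos in both tissues for 14 members (22.2%, against 15.9%) and below them in both for 4 (6.35%, against 12.3%). In 9 members, 14.3% against 7.90%, replicate 1 was the lowest and the pool the highest array of both tissues: both probe sets of kdm1a.S and of setdb1.L, both copies of kdm3a, and brd3.S, suz12 and a probe set of smarcd1.L. The BET gene brd3.S read 11.64 in the head pool against 10.39 to 10.97 in single heads and 11.40 in the tail pool against 9.73 to 10.59 in single tails (pooled minus single 1.11, limma adjusted p = 0.181). Its relative brd2.S ran the other way, with 12.39 and 12.52 in the pools against 12.80 to 13.55 in single embryos (-0.71, limma adjusted p = 0.217). With array weights 14 members (22.2%) and 11.4% of all probe sets passed as different between pools and single embryos, where no probe set had passed in the same fit without weights.

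The 28 members below the tested level had mean log2 signals from 2.67 to 7.85, and 14 genes were represented by such probe sets alone: bmi1, cbx5, hdac2, hdac9, hdac10, ing1, kdm6a, ring1, setd4, setd6, sirt2, sirt7, smarcal1 and smarcc2. With no filter none of the 28 passed by limma, 1 had an unadjusted p under 0.05 and the lowest adjusted p was 0.281, for the untested chd7.L probe set (heads 7.45 ± 0.31, tails 6.56 ± 0.43, SD, 4 arrays per tissue). The deposited table holds no detection calls, so whether these genes were expressed could not be judged from it.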

How the data were processed

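The 4 head and 4 tail RNA samples, 1 of each from pooled embryos, were labelled from 100 ng of total RNA with 2 rounds of amplification, per the labels' protocols. The authors deposited one linear intensity value per probe set and array; the submitters' processing notes name MAS5, without a version. The trimmed mean was 1000 on every array and median signals ran from 327 to 390. Precision is limited by the 4 arrays per tissue.

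Gene symbols came from the array annotation (1 symbol for 9304 of 15491 probe sets); the RefSeq table of the Xenopus_laevis_v10.1 assembly listed 90 of 91 members and changed no symbol. Genome positions are not printed, since the array annotation states no assembly. No value was under 1, and log2 was taken of the deposited values. Tests used limma 3.58.1 in R 4.3.3 (lmFit, eBayes with trend, two-sided) on all 8 arrays; steps were checked on simulated data. Families were described by counts and medians without a set test.

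Named genes were those past an adjusted p of 0.05, the 2 with the highest mean in each family without one, and ezh2, eed, suz12, rnf2, bmi1, dnmt1, hdac1, smarca4, smarca5, chd4 and kdm1a where measured, with all their probe sets (smarca4 had none), and further members by unadjusted p had these come to fewer than 24 genes. Members named outside that rule were picked with their values in view. The members and lists were chosen with earlier results of these data known. Alternatives were another filter, scaling, low-value treatment, variance model, array weights, the replicate block and left-out arrays.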

Additional observations from a re-analysis of the deposited data

Results flagged for a closer look

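In 98 groups of 4 arrays (49 probe sets described above, heads and tails apart) 4 arrays stood further from the other 3 than Dixon's 95% criterion allows, where chance gives about 1 in 20 groups. For brd7.L head replicate 3 read 11.83, below the 12.15 to 12.17 of the other heads. For kat7.L head replicate 1 read 11.62, below the other heads at 12.14 to 12.22. For hdac8.L the pooled heads read 9.05, above the single heads at 8.58 to 8.65. For cbx2.L tail replicate 2 read 9.001, above the other tails at 7.79 to 7.998. None of these 4 probe sets passed the test between heads and tails.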

How the results depend on the processing

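The 1 call among the members became 2 with median centring, 6 with the replicate number as a block, 10 with array weights, 3 without both replicate 1 arrays, and 0 with the 6 single-embryo arrays, without the intensity trend or with a 2-fold minimum; with 1 array left out it ran from 0 to 2. Replicate numbers are not stated to pair the samples, and the deviations of same-numbered heads and tails correlated at 0.23, 0.03, 0.02 and 0.60 for numbers 1 to 4, with heads 2 and 3 nearest to tail 1. Under the block arid3a.S, eed.L, dnmt1.S, kdm1a.S, kdm3a.S and rnf222.S passed, which is 9.52% of the members against 6.83% of all tested probe sets. With array weights the shares were 15.9% and 13.2%. Over all probe sets the 429 calls became 273 with the filter at the 60th percentile, 211 in single embryos, 1223 with array weights and 683 without both replicate 1 arrays, and ran from 208 to 501 with 1 array left out. Pooled against single embryos gave 14 member calls with array weights and 0 otherwise; single-embryo arrays and the block could not be fitted there. The 2 partner calls became 5 with array weights and 1 to 3 with 1 array left out. Family medians stayed within the spread between arrays except for sirtuins (-0.16 without both replicate 1 arrays) and the RING-finger genes caught by letters (-0.58 with the stricter filter, -0.062 with array weights), though with few probe sets that spread is wide: the DNA methylation median was 0.26 with the stricter filter and that of SWI/SNF 0.15 with array weights. The cause of these shifts was not tested. No named call changed sign. Signals near the filter are noisy on the log scale, and no background measure was at hand.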
